A study of Rattus norvegicus with 12 samples.

Results

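Kinesins, tubulins, stathmins and cytoplasmic dyneins build, regulate and walk along microtubules. The genes described here were chosen by name, as every gene on the array whose single symbol is that of a kinesin (Kif or Kifc), an alpha-, beta- or gamma-tubulin, a protein of the gamma-tubulin ring complex, 1 of the stathmins Stmn1 to Stmn4, or a dynein subunit (Dync or Dynl). The rule found 65 of the 14217 genes tested, and used no measured value. They were compared between rat F111 fibroblasts kept for 16 h in suspension on an agarose-coated surface (NA16) and the same line kept for 16 h attached to uncoated plastic (A16). Both states were in DMEM with fetal calf serum. F111 is an established fibroblast line of the Fischer rat that the study found to be aneuploid. The study also describes a loss of viability in suspension, and the sources used here do not say whether dead cells were removed before RNA was isolated. Total RNA of each state was measured on 3 Affymetrix arrays: biological replicate 1, biological replicate 2 and technical replicate 2. RNA from all cells of a culture was measured together, so fewer dividing cells and less RNA per cell cannot be told apart.

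Microtubules are hollow polymers of alpha- and beta-tubulin that are nucleated from ring complexes holding gamma-tubulin, and stathmins bind free tubulin dimers and favour shrinkage. Kinesins use ATP to walk along or shorten microtubules. One set builds the mitotic spindle, moves chromosomes and completes cell division, and is made mainly from S phase to mitosis. Another carries vesicles, organelles and ciliary cargo in dividing and non-dividing cells alike, while cytoplasmic dynein 1 hauls cargo the opposite way and dynein 2 works inside cilia. Fibroblasts divide when attached to a surface and use the same microtubule tracks for shape, polarity and migration.

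Genes needed for mitosis often carry a CHR element, whose letters are TTTGAA, and a CCAAT box near the gene start. All measured mitotic kinesins fell, including those in which neither was found. The stretches of the 4 mitotic kinesin promoters in which both were found are shown. That of Kif3a, the transport kinesin that rose most, is shown beside them and holds neither. Each stretch is the 160 bases just before the gene start in the RefSeq table of the GRCr8 assembly, on the strand of the gene, with CHR and CCAAT letters of either strand in capitals (TTCAAA and ATTGG are the other strand). The stretch of Kif22 lies at chr1:191080879-191081038 on the minus strand, that of Kif23 at chr8:71320585-71320744 on the minus strand, that of Kifc1 at chr20:5000769-5000928 on the plus strand, that of Kif20b at chr1:241840856-241841015 on the plus strand and that of Kif3a at chr10:38226610-38226769 on the plus strand.
Kif22: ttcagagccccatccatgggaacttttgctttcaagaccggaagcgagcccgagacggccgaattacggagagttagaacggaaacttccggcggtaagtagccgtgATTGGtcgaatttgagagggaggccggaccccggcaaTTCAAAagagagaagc
Kif23: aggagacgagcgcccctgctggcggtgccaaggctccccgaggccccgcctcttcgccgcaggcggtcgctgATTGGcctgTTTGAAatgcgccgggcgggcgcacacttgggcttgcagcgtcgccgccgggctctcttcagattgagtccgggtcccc
Kifc1: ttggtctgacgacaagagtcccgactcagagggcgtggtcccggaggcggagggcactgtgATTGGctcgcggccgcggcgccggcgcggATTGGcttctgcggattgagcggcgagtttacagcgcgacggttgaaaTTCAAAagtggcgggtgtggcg
Kif20b: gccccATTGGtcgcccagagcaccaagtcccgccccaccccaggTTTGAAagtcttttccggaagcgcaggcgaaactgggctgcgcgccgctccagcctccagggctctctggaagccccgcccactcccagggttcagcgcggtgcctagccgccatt
Kif3a: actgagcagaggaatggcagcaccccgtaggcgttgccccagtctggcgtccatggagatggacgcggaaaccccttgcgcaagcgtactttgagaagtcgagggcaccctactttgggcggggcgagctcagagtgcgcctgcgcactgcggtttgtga

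In Kif22 the CHR began 16 bases and a CCAAT box 53 bases before the gene start. In Kif23 they began 79 and 88 bases before it. Kifc1 had its CHR at 22 bases and CCAAT boxes at 70 and 99 bases, and Kif20b had them at 116 and 155 bases. In the longer window searched, Kif22 held a further CCAAT box 231 bases before the start, and Kif20b further CHR letters 2 and 8 bases after it. A window of 250 bases before to 50 after the start was searched on both strands for 54 of the 65 genes. For Kif5a, Dynlt3, Kif7, Kifc3, Kifc2, Dync2h1, Stmn4, Kif14, Dynlrb1, Stmn2 and Dynll2 the table had no entry. A CHR was found in 5 of 10 mitotic kinesins, in 0 of 10 transport kinesins and in 19.4% of all 27457 genes of the table (13.3% of the 11733 tested here). A CCAAT box was found in 6 of 10 mitotic kinesins and 3 of 10 transport kinesins, with 39.6% of all genes (38.6% of those tested). Both together were in 4 of 10 mitotic kinesins, 0 of 10 transport kinesins and 7.96% of all genes (5.4% of those tested). Kif18a, Kif18b and Kif2c held neither, and their log2 changes were -0.96, -1.03 and -1.02. Those of the 4 mitotic kinesins with both lay between -1.36 (Kif22) and -0.64 (Kif20b). The E2F letters TTTGGCGC or TTTCGCGC were in 1 of 10 mitotic kinesins and 0.892% of all genes (1.37% of those tested). The core of hypoxia elements, ACGTG, was in 3 of 10 mitotic kinesins and 20.9% of all genes (25.1% of those tested). By call, a CHR was in 6 of 19 members lower in NA16, 0 of 6 higher and 2 of 29 not called. Those 6 were the 5 mitotic kinesins already counted and Tubb4b, so the split by call largely repeats that by role. Such matches describe letters in a window and are not measured sites. The starts coincide with the outermost base of the annotated gene in 23 of 56 windows, so another start could be in use. Of the genes whose stretches are shown, Kifc1 has such a start, and Kif22, Kif23, Kif20b and Kif3a do not.

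Arrays and states were checked before the genes were read. The median RMA intensity was 156 to 157 on the NA16 arrays and 152 to 154 on the A16 arrays. Technical replicate 2 was averaged with biological replicate 1, as the labels point to, which left n = 2 per state. In NA16 its array was closer to that of biological replicate 2 (mean absolute log2 difference 0.125) than to that of replicate 1 (0.217), while in A16 it was closer to replicate 1 (0.132) than to replicate 2 (0.199). With it averaged with replicate 2 instead, 25 of the 65 genes were called rather than 29, and without it 24. In NA16 cells the beta-actin control probe sets read 0.87 to 0.93 higher at the 3′ than at the 5′ end on the log2 scale, against 0.37 to 0.44 in A16 cells, and the GAPDH controls differed by at most 0.07 in both. Of 10 fibroblast markers 2, Thy1 and Pdgfrb, were higher and 0 lower, with a summed intensity of 102756 to 144812 in NA16 and 125031 to 154065 in A16 cells. Of 6 epithelial markers Krt8 and Epcam, of 6 macrophage markers Cd68 and Lyz2, and of 4 endothelial markers Pecam1 were higher, with 0 lower, and 0 of 8 neuronal markers were called by limma (0 at an unadjusted p below 0.05). The summed intensity of the epithelial markers was 2716 to 3181 in NA16 and 1306 to 1474 in A16 cells, that of the macrophage markers 1773 to 2082 in NA16 and 1739 to 2012 in A16 cells, and that of the endothelial markers 290 to 294 in NA16 and 242 to 279 in A16 cells. Neuronal markers summed to 442 to 471 in NA16 and 417 to 457 in A16 cells. Among the dimmest 25% of genes were 0 of the fibroblast, 4 of the epithelial, 3 of the macrophage, 3 of the endothelial and 7 of the neuronal markers. The part of RNA ends and of other cells in the results was not tested.

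Of the 65 genes, 7 (10.8%) were higher and 22 (33.8%) lower in NA16 cells at an adjusted p below 0.05. Over all genes tested, 38.9% were called, 21.9% higher and 16.9% lower, so the members held a larger share of lower and a smaller share of higher calls than the array as a whole. The 3 NA16 arrays lay entirely above the 3 A16 arrays for 9 members and entirely below for 28, beside 51.7% of all genes for which the arrays did not overlap either way. The median log2 change of the members was -0.09, against 0.01 for all genes. The lower calls lay in the mitotic kinesins, the gamma-tubulin complex, 2 beta-tubulins, Stmn1, 4 transport kinesins and Kif7. The higher calls lay in transport kinesins, dynein light chains and dynein 2.

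**Figure D1:**
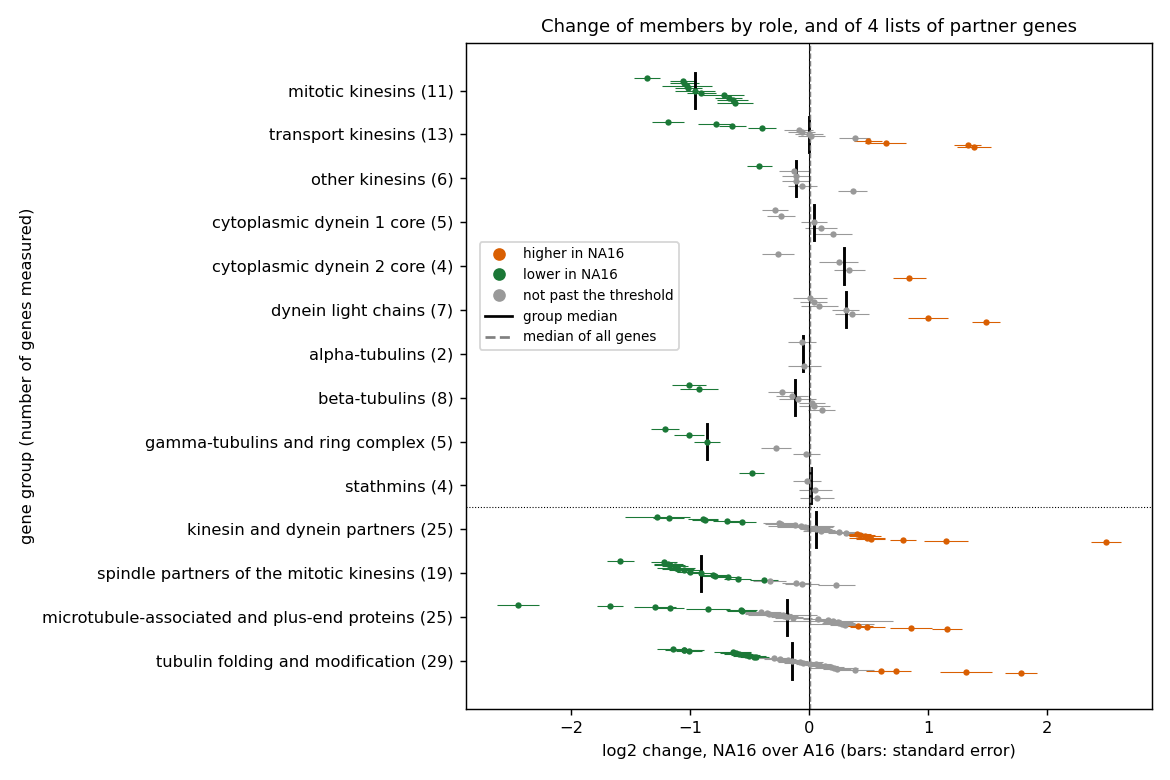
Log2 change of NA16 over A16 (x axis, bars are the standard error of the fit) for the 65 genes by role and for 4 lists of partner genes below the dotted line (y axis). Points are genes coloured by call, short vertical lines are medians; all 11 mitotic kinesins lie left of 0, with a median of -0.96, and transport kinesins spread to both sides, with a median of -0.01.

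All 11 measured mitotic kinesins were lower in suspension, and for each of them the 3 NA16 arrays lay below the 3 A16 arrays. The median log2 change was -0.96, with a narrow range between -1.36 (Kif22) and -0.63 (Kif20a), and 5 of the 11 fell at least 2-fold. Values are log2 RMA intensities in the order biological replicate 1, biological replicate 2 and technical replicate 2. The p-values weigh a change against the spread between samples, which limma draws in part from other genes and which may be technical. Kif22, a chromokinesin that pushes chromosome arms towards the spindle equator, had 10.35, 10.30 and 10.35 in NA16 cells, against 11.71, 11.69 and 11.67 in A16 cells. The NA16 arrays spanned little, and the mean was 10.32 ± 0.04 in NA16 and 11.69 ± 0.001 in A16 cells (SD, n = 2 each), a 2.57-fold fall (log2 change -1.36, SE 0.11, adjusted p = 0.000176). Kif23, the motor of the centralspindlin complex that the dividing cell needs for its midzone, had 10.60, 10.88 and 11.00 in NA16 cells, against 11.80, 11.91 and 11.99 in A16 cells. All NA16 values were lower (log2 change -1.06, SE 0.11, adjusted p = 0.000467), and its second probe set fell by 1.30 on the log2 scale. Kif14, which acts at the cleavage furrow, had 7.74, 7.67 and 7.75 in NA16 cells, against 8.73, 8.67 and 8.98 in A16 cells. It fell 2.07-fold (log2 change -1.05, SE 0.12, adjusted p = 0.000682).

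Kif18b and Kif2c shorten microtubules at their ends. Kif18b had 10.31, 11.06 and 10.95 in NA16 cells, against 11.63, 12.12 and 11.60 in A16 cells. Biological replicate 1 was the lowest of the NA16 arrays and replicate 2 the highest of the A16 arrays, so that the error was larger (log2 change -1.03, SE 0.21, adjusted p = 0.00778). Kif2c, which corrects faulty attachments at centromeres, had 9.39, 9.29 and 9.30 in NA16 cells, against 10.33, 10.28 and 10.46 in A16 cells. The groups were well apart (log2 change -1.02, SE 0.11, adjusted p = 0.000608), and the second probe set of Kif2c fell by 1.07 on the log2 scale. Kif18a, which damps chromosome movements at metaphase, had a log2 change of -0.96, and the pole-focusing motor Kifc1 one of -0.91. Kif11 and Kif15 push the spindle poles apart, and their log2 changes were -0.72 and -0.68; the second probe set of Kif11 was at -1.05. Kif20b and Kif20a, both of late mitosis and cytokinesis, changed least, by -0.64 and -0.63. The calls of Kif11 and Kif20a were lost without A16 replicate 1 (log2 change -0.50, adjusted p = 0.0551, and -0.46, adjusted p = 0.0695), that of Kif20a also with technical replicate 2 left out (-0.55, adjusted p = 0.0655), and that of Kif20b without NA16 replicate 2 (-0.51, adjusted p = 0.0615). The calls of the other 8 held under every alternative other than the methods' t-test.

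**Figure D2:**
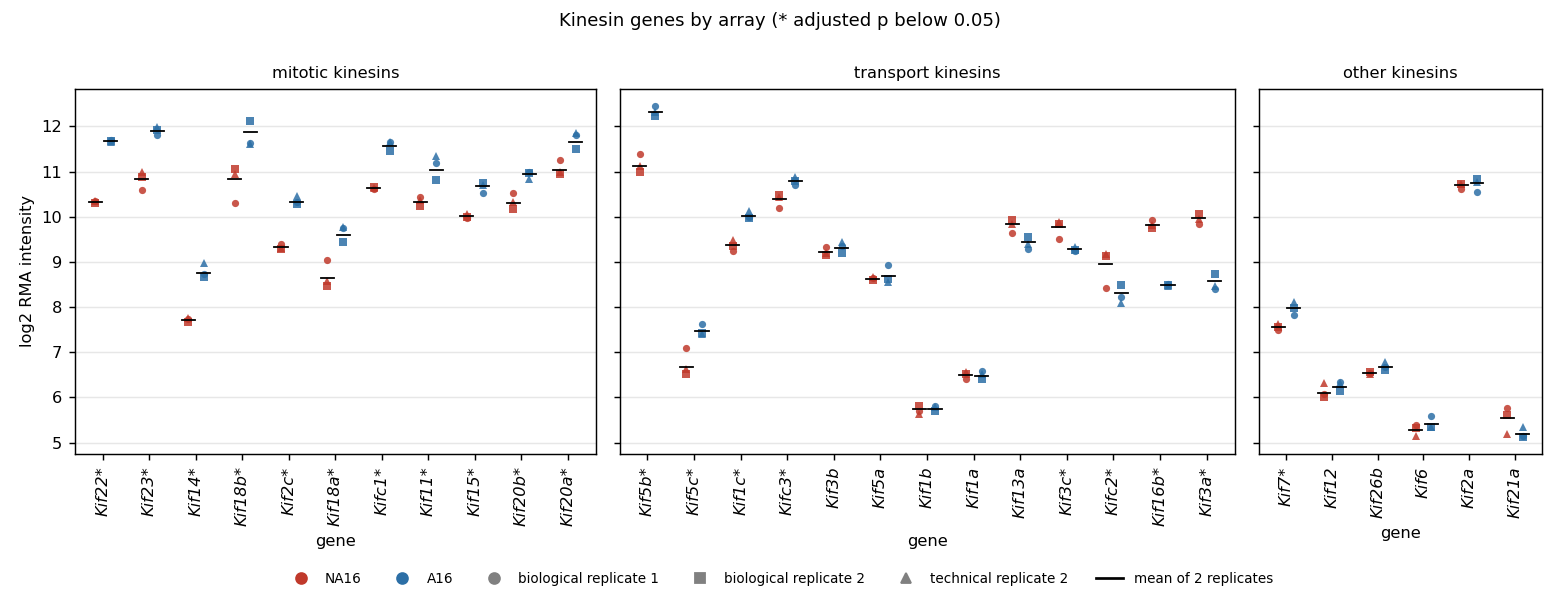
Log2 RMA intensity (y axis) of the 30 kinesin genes (x axis) on each array, NA16 left of A16 for every gene. Symbols mark the arrays, short lines the mean of the 2 replicates and asterisks an adjusted p below 0.05; the 3 NA16 arrays sit below the 3 A16 arrays for all 11 mitotic kinesins and above them for Kif3a, Kif16b, Kif3c and Kif13a.

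Spindle proteins that work with these motors fell as well. Of 19 measured, 15 (78.9%) were lower and 0 higher, beside 16.9% lower and 21.9% higher over all genes, with a median log2 change of -0.91. Incenp, the scaffold of the chromosomal passenger complex that Kif20a carries, had 7.82, 7.90 and 7.83 in NA16 cells, against 9.40, 9.48 and 9.45 in A16 cells. It changed most of the list (log2 change -1.59, SE 0.11, adjusted p = 0.000113). The mitotic kinase gene Plk1 had a log2 change of -1.22 and the cyclin gene Ccnb1 one of -1.19. Cenpe, itself a kinesin of the kinetochore that lies outside the name rule, had 9.33, 9.30 and 9.37 in NA16 cells, against 10.14, 10.04 and 10.26 in A16 cells, and all NA16 values were lower (log2 change -0.80, SE 0.12, adjusted p = 0.00194). Racgap1, the partner of Kif23 in centralspindlin, had a log2 change of -0.81, and Prc1, which bundles midzone microtubules, one of -0.68. The 4 genes of this list that did not pass were Hmmr (-0.33), Nusap1 (-0.12), Ckap5 (-0.06) and Numa1 (0.23).

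Transport kinesins were called in both directions, as were the genes of the whole array. Of 13 measured, 4 (30.8%) were higher, 4 (30.8%) were lower and 5 did not pass, beside 21.9% higher and 16.9% lower over all genes. Their median log2 change of -0.01 lay 0.955 above that of the mitotic kinesins and near the 0.01 of all genes. Kif3a, the motor subunit of kinesin-2 that carries cargo along cilia, had 9.83, 10.05 and 9.96 in NA16 cells, against 8.40, 8.74 and 8.47 in A16 cells. All NA16 values exceeded all A16 values, and the mean was 9.97 ± 0.11 in NA16 and 8.59 ± 0.22 in A16 cells (SD, n = 2 each), a 2.61-fold rise (log2 change 1.39, SE 0.14, adjusted p = 0.000449). Its second probe set rose by 1.33. Kif16b, which moves early endosomes, had 9.93, 9.76 and 9.82 in NA16 cells, against 8.50, 8.48 and 8.48 in A16 cells. The A16 arrays were nearly equal (log2 change 1.33, SE 0.11, adjusted p = 0.000216). Of its other 4 probe sets, 2 were called higher, at 0.94 and 0.76, and 2 were not, at 0.38 and -0.11. Kifc2, known as a carrier in mouse neurons, had 8.42, 9.13 and 9.17 in NA16 cells, against 8.22, 8.49 and 8.09 in A16 cells. Biological replicate 1 of NA16 lay within the A16 range, so the groups overlapped (log2 change 0.64, SE 0.17, adjusted p = 0.0227). Kif3c, an alternative partner of Kif3a, had 9.51, 9.85 and 9.88 in NA16 cells, against 9.24, 9.27 and 9.33 in A16 cells. The groups did not overlap (log2 change 0.49, SE 0.12, adjusted p = 0.0138), and its second probe set was at 0.11. Kifc2 did not pass once A16 replicate 1 was left out (log2 change 0.47, adjusted p = 0.117), nor once NA16 replicate 2 was (0.47, adjusted p = 0.0916). Kif3c did not pass by adjusted p without A16 replicate 1 (0.0513), A16 replicate 2 (0.0564) or NA16 replicate 2 (0.148), or with the mean of its probe sets (0.352).

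Of the 3 heavy chains of kinesin-1, the main motor for vesicles and mitochondria, Kif5b and Kif5c fell and Kif5a did not pass. Kif5b, the form made in most tissues, had 11.39, 11.00 and 11.12 in NA16 cells, against 12.46, 12.23 and 12.33 in A16 cells. All NA16 values were lower, by 2.28-fold (log2 change -1.19, SE 0.14, adjusted p = 0.00065), and its second probe set fell by 1.56 on the log2 scale. Kif5c, best known from neurons, had 7.08, 6.51 and 6.63 in NA16 cells, against 7.62, 7.43 and 7.40 in A16 cells. Biological replicate 1 of NA16 was the nearest to the A16 arrays, which it did not reach (log2 change -0.79, SE 0.15, adjusted p = 0.00502). Its other probe sets were at -0.83 and -0.08 and did not pass. Kif5a, the third of these heavy chains, had a log2 change of -0.06 (adjusted p = 0.747). Kif1c, a carrier of integrin-bearing vesicles, had 9.25, 9.36 and 9.49 in NA16 cells, against 9.98, 9.97 and 10.13 in A16 cells. The groups did not overlap (log2 change -0.65, SE 0.11, adjusted p = 0.00368). Kifc3, which walks to the minus end, had 10.19, 10.48 and 10.43 in NA16 cells, against 10.69, 10.79 and 10.89 in A16 cells. This was the smallest of the calls among transport kinesins (log2 change -0.40, SE 0.12, adjusted p = 0.0346), and it was lost when either replicate of either state was left out, with adjusted p between 0.0853 and 0.333. The other transport kinesins were at -0.09 (Kif3b), -0.01 (Kif1b), 0.02 (Kif1a) and 0.38 (Kif13a), the last with arrays that did not overlap and an adjusted p of 0.0619.

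Within kinesin-2, Kif3b, the usual partner of Kif3a, had 9.33, 9.16 and 9.19 in NA16 cells, against 9.36, 9.20 and 9.43 in A16 cells. The groups overlapped, and whether Kif3b differed from Kif3a in its change was not tested. The third subunit of kinesin-2, Kifap3, had 10.97, 11.05 and 11.12 in NA16 cells, against 10.15, 10.29 and 10.32 in A16 cells, and was higher (log2 change 0.79, SE 0.11, adjusted p = 0.00147). Of 25 measured adaptors and activators of kinesin and dynein, Kifap3 among them, 8 (32.0%) were higher and 6 (24.0%) lower, with a median log2 change of 0.06. Over all genes 21.9% were higher and 16.9% lower. Klc4, a light chain of kinesin-1, had 10.75, 11.24 and 11.23 in NA16 cells, against 8.60, 8.61 and 8.65 in A16 cells. It rose most of the list (log2 change 2.49, SE 0.13, adjusted p = 5.49e-05). The light chain gene Klc2 had 8.36, 9.32 and 8.87 in NA16 cells, against 10.05, 10.55 and 9.83 in A16 cells. It fell (log2 change -1.28, SE 0.28, adjusted p = 0.00988), so that light chains of 1 motor were called in both directions, with Klc1 at 0.47 (adjusted p = 0.0314). Hook2, a dynein adaptor, had a log2 change of 1.15, and Actr1a, the main filament protein of dynactin, one of -1.18. The other genes of the list that were lower were Nde1 (-0.89), Nudc (-0.88), Trak2 (-0.69) and Dctn5 (-0.57). The others that were higher were Mapk8ip1 (0.52), Dctn4 (0.48), Trak1 (0.42) and Dctn6 (0.40), so dynactin and Trak genes were called in both directions.

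Of 6 kinesins of other or mixed roles, 1 (16.7%) was called, beside 38.9% called over all genes. Kif7, a regulator of Hedgehog signalling at the tip of the cilium, had 7.48, 7.56 and 7.63 in NA16 cells, against 7.82, 7.99 and 8.11 in A16 cells. It was lower (log2 change -0.42, SE 0.11, adjusted p = 0.0206), a call that was lost when any 1 replicate was left out, with adjusted p between 0.0622 and 0.147, and in the PLIER columns (0.0601). Kif2a, a relative of Kif2c that works at spindle poles and in neurons, had 10.60, 10.73 and 10.73 in NA16 cells, against 10.55, 10.85 and 10.78 in A16 cells. The groups overlapped (log2 change -0.06, SE 0.12, adjusted p = 0.78). The others had log2 changes of -0.13 (Kif12), -0.11 (Kif26b), -0.11 (Kif6) and 0.36 (Kif21a, adjusted p = 0.0505), and Kif12, Kif6 and Kif21a lay among the dimmest 25% of genes tested.

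The 5 measured core subunits of cytoplasmic dynein 1 were not called in either direction by limma, beside 38.9% called over all genes. Of the 5, 1, Dync1li1, had an unadjusted p below 0.05. Dync1i2, an intermediate chain that binds cargo adaptors, had 11.85, 11.74 and 11.75 in NA16 cells, against 11.77, 11.70 and 11.75 in A16 cells. The groups overlapped (log2 change 0.04, SE 0.11, adjusted p = 0.847). The heavy chain gene Dync1h1, which encodes the motor itself, had 10.88, 11.56 and 11.45 in NA16 cells, against 10.89, 11.26 and 11.23 in A16 cells. Biological replicate 1 was the lowest array in both states (log2 change 0.20, SE 0.16, adjusted p = 0.423). The light intermediate chains Dync1li1 and Dync1li2 were at -0.29 and -0.24, with arrays that did not overlap and adjusted p of 0.0826 and 0.162, and Dync1i1 was at 0.10.

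The dynein light chains had 2 called genes of 7, beside 38.9% called over all genes. Dynein 2, the motor that returns cargo from the ciliary tip, had 1 of 4. Dync2li1, its light intermediate chain, had 9.27, 8.86 and 9.07 in NA16 cells, against 8.15, 8.13 and 8.31 in A16 cells. All NA16 values were higher (log2 change 0.84, SE 0.14, adjusted p = 0.00311). Dync2i2, an intermediate chain, had 8.74, 9.31 and 9.35 in NA16 cells, against 8.85, 8.81 and 8.90 in A16 cells. Biological replicate 1 of NA16 lay below the A16 arrays and the other NA16 arrays above (log2 change 0.34, SE 0.13, adjusted p = 0.0902). The heavy chain Dync2h1 was at 0.25 and Dync2i1 at -0.26, neither past the threshold. Dynlrb2, a roadblock light chain found with motile and primary cilia, had 8.53, 8.24 and 8.30 in NA16 cells, against 6.77, 6.87 and 6.87 in A16 cells. This was the largest rise among the members, 2.80-fold (log2 change 1.48, SE 0.12, adjusted p = 0.000178). Dynlt2b, a light chain of dynein 2, had 8.94, 8.40 and 8.46 in NA16 cells, against 7.69, 7.37 and 7.77 in A16 cells. The groups did not overlap (log2 change 1.00, SE 0.17, adjusted p = 0.00322). Dynlrb1, the common roadblock chain, had 12.80, 12.66 and 12.75 in NA16 cells, against 12.40, 12.38 and 12.47 in A16 cells. The NA16 arrays were above the A16 arrays by a small amount (log2 change 0.31, SE 0.11, adjusted p = 0.0753). The log2 changes of the remaining light chains were 0.36 (Dynlt3), 0.08 (Dynlt1), 0.04 (Dynlt5) and 0.003 (Dynll2). Those of Dynlt1, Dynlt5 and Dynll2 were smaller than their SE (0.15, 0.12 and 0.14). By RMA 7 of 7 fitted changes were positive, beside 7306 of all 14217 genes. This did not hold throughout: a second probe set of Dynll2 was at -0.37 and did not pass. In the PLIER columns Dynll2 and Dynlt5 were at -0.01 and -0.04.

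**Figure D3:**
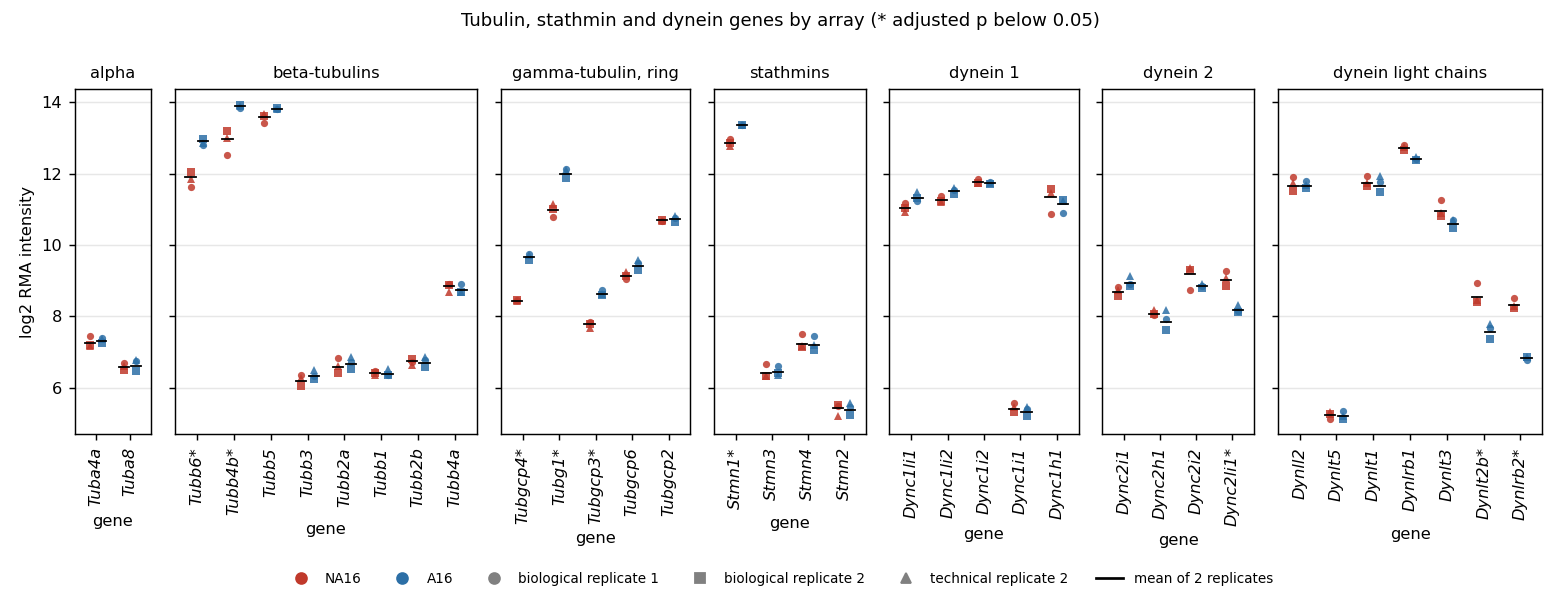
Log2 RMA intensity (y axis) of the 35 tubulin, stathmin and dynein genes (x axis) on each array, NA16 left of A16 for every gene. Symbols mark the arrays, short lines the mean of the 2 replicates and asterisks an adjusted p below 0.05. Of the genes with an asterisk, Tubb6, Tubb4b, Tubgcp4, Tubg1, Tubgcp3 and Stmn1 have all 3 NA16 arrays below A16, and Dync2li1, Dynlt2b and Dynlrb2 above it. Some genes without an asterisk, such as Tubb5 and Dynlrb1, have arrays that do not overlap either.

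Among tubulins that form the polymer, 2 of 8 beta-tubulins (25.0%) were lower, beside 16.9% of all genes. Neither of the 2 measured alpha-tubulins was called by limma, with 0 at an unadjusted p below 0.05. Those 2 were Tuba4a and Tuba8, with mean log2 intensities of 7.29 and 6.59. No probe set with a single symbol stood for Tuba1a, Tuba1b or Tuba1c, so the change of alpha-tubulin as a whole was not measured. Tubb6, a beta-tubulin of many tissues, had 11.62, 12.05 and 11.85 in NA16 cells, against 12.82, 12.97 and 12.86 in A16 cells. All NA16 values were lower (log2 change -1.01, SE 0.14, adjusted p = 0.0016), while a second probe set was at -0.26 and did not pass. Tubb4b, a broadly made form that is prominent in cilia, had 12.52, 13.18 and 13.00 in NA16 cells, against 13.84, 13.93 and 13.90 in A16 cells. The NA16 arrays were spread, with biological replicate 1 lowest, and did not reach the A16 arrays (log2 change -0.93, SE 0.16, adjusted p = 0.00364). Tubb5, the common form of dividing cells, had 13.43, 13.63 and 13.68 in NA16 cells, against 13.80, 13.85 and 13.81 in A16 cells. The groups did not overlap, and the change was small and not called (log2 change -0.23, SE 0.11, adjusted p = 0.155). The log2 changes of the other beta-tubulins, which are best known from neurons or platelets, were -0.15 (Tubb3), -0.10 (Tubb2a), 0.02 (Tubb1), 0.04 (Tubb2b) and 0.10 (Tubb4a). The alpha-tubulin gene Tuba4a had 7.45, 7.19 and 7.18 in NA16 cells, against 7.40, 7.25 and 7.38 in A16 cells, and Tuba8 had a log2 change of -0.04 in the RMA and of -0.78 in the PLIER columns (adjusted p = 0.00438). Probe sets annotated with several tubulin, dynein or kinesin symbols, 8 in number, were left out. Tubulin transcripts are alike in sequence, and how far a probe set reports a relative was not tested.

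The gamma-tubulin complex was lower in 3 of 5 genes, beside 16.9% of all genes, with a median log2 change of -0.86. All 5 fitted changes were negative by RMA, while that of Tubgcp2 was 0.01 in the PLIER columns. Tubgcp4, a ring protein, had 8.45, 8.45 and 8.43 in NA16 cells, against 9.75, 9.58 and 9.73 in A16 cells. The NA16 arrays were nearly equal and lay below A16 by 2.32-fold (log2 change -1.22, SE 0.12, adjusted p = 0.000343), and its second probe set fell by 0.61 on the log2 scale. Tubg1, gamma-tubulin itself, had 10.78, 11.02 and 11.15 in NA16 cells, against 12.12, 11.89 and 12.10 in A16 cells. It was 2.01-fold lower (log2 change -1.01, SE 0.12, adjusted p = 0.000898). Tubgcp3, a core protein of the small complex from which rings are made, had 7.86, 7.79 and 7.66 in NA16 cells, against 8.74, 8.59 and 8.62 in A16 cells. The groups did not overlap (log2 change -0.86, SE 0.11, adjusted p = 0.00108). Its partner Tubgcp2 had 10.69, 10.70 and 10.68 in NA16 cells, against 10.75, 10.65 and 10.81 in A16 cells, which overlapped (log2 change -0.03, SE 0.11, adjusted p = 0.907). Tubgcp6 was at -0.28 with an adjusted p of 0.135. Stmn1, the stathmin of dividing cells, had 12.97, 12.86 and 12.78 in NA16 cells, against 13.35, 13.35 and 13.36 in A16 cells. The A16 arrays were nearly equal and above the NA16 arrays (log2 change -0.49, SE 0.11, adjusted p = 0.0112). Stmn1 no longer passed once NA16 replicate 1 (log2 change -0.49, adjusted p = 0.074), NA16 replicate 2 (-0.48, adjusted p = 0.0856) or technical replicate 2 (-0.44, adjusted p = 0.0553) was left out, with a change of similar size each time. The stathmins of neurons were at -0.02 (Stmn3), 0.05 (Stmn4) and 0.07 (Stmn2), none called.

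Genes that fold and modify tubulin, and proteins that bind microtubules, were called in both directions, as were the genes of the whole array (16.9% lower and 21.9% higher). Of 29 folding and modifying genes, 11 (37.9%) were lower and 4 (13.8%) higher, with a median of -0.14. Tcp1, a subunit of the chaperonin that folds tubulin and actin, had 12.49, 12.18 and 12.42 in NA16 cells, against 13.44, 13.51 and 13.38 in A16 cells. All NA16 values were lower (log2 change -1.15, SE 0.14, adjusted p = 0.000737). Of the same chaperonin, Cct6a (-1.06), Cct3 (-1.01), Cct5 (-0.59) and Cct7 (-0.45) were also lower, while Cct8 (-0.30), Cct2 (-0.18) and Cct4 (0.001) did not pass. Tbcel, which takes tubulin dimers apart, had 9.81, 9.90 and 9.85 in NA16 cells, against 7.95, 8.23 and 7.95 in A16 cells, and rose (log2 change 1.78, SE 0.13, adjusted p = 0.000139). The tubulin deacetylase genes were called in opposite directions, Sirt2 at 1.32 and Hdac6 at -0.65. The other higher genes were Arl2 (0.73) and Tbce (0.60). Of 25 microtubule-associated and plus-end proteins, 7 were lower and 4 higher, with a median of -0.18. Dcx, doublecortin, which is best known from migrating neurons, had 7.67, 7.24 and 7.24 in NA16 cells, against 9.97, 9.57 and 10.07 in A16 cells. It fell most of the list (log2 change -2.45, SE 0.17, adjusted p = 0.000113), and its relative Dclk1 had a log2 change of -1.68. Mapre1, the end-binding protein that tracks growing plus ends, had 11.52, 11.38 and 11.43 in NA16 cells, against 12.55, 12.65 and 12.55 in A16 cells. All NA16 values were lower (log2 change -1.17, SE 0.11, adjusted p = 0.000371), while its relative Mapre2 was higher (0.85). Map1b had a log2 change of -1.30, and the higher genes beside Mapre2 were Map2 (1.16), Mapt (0.49) and Spast (0.41).

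The deposited PLIER columns are a second summary of the same 6 arrays and not further samples. By them 30 members were called, among them 28 of the 29 called by RMA, and 0 of the 29 changed sign under any alternative. The rises of Kif3a and Dynlrb2 were 1.42 and 1.62 by PLIER, and the falls of Kif22 and Tubgcp4 had log2 changes of -1.40 and -1.41. By PLIER but not by RMA, Tuba8 was called lower and Kif13a higher, Kif13a at 0.60 (adjusted p = 0.0184). The other probe sets of Kif13a were at 0.04 and 0.13 by RMA and did not pass.

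**Figure D4:**
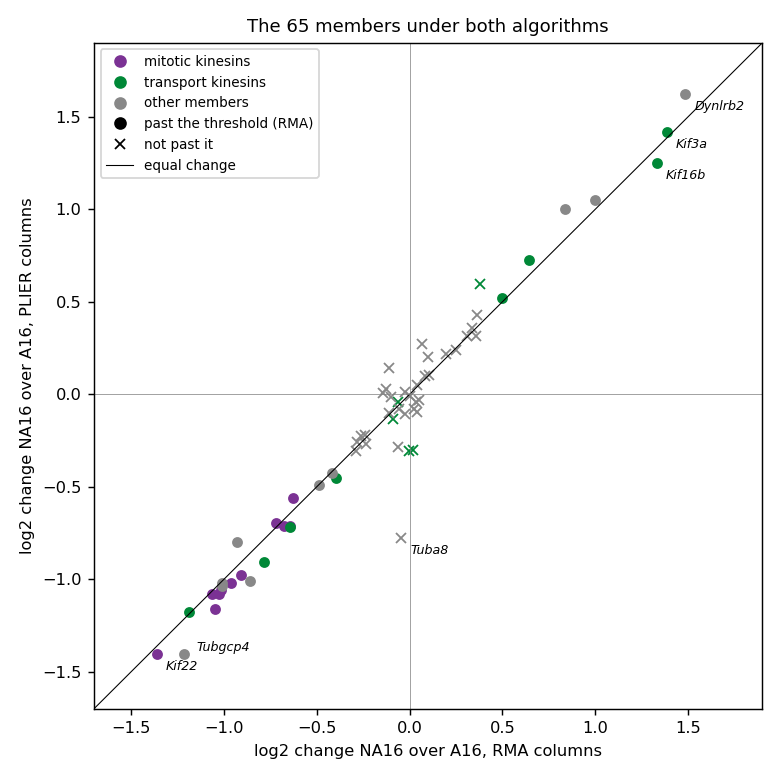
Log2 change of NA16 over A16 of the 65 members in the RMA columns (x axis) and in the PLIER columns (y axis), which come from the same arrays. Filled points passed the threshold by RMA, crosses did not, and the line marks equal change; most members lie near the line, and Tuba8 lies farthest from it, at -0.04 by RMA and -0.78 by PLIER.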

How the data were processed

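Biotin-labelled RNA was read on Affymetrix rat arrays. The deposited values are intensities on a linear scale, which the authors normalized in Avadis by RMA and again by PLIER from the same 6 arrays, with versions not given in the sources at hand. The lowest RMA intensities lay just above 16, so a constant of 16 appears to have been added, so that changes of dim genes may be understated. log2 of each intensity was taken here. Array annotation gave 1 symbol to 20826 of 31042 probe sets, 57 controls aside, and the brightest RMA probe set stood for each gene. The states were compared with limma 3.58.1 (lmFit, eBayes; R 4.3.3) at 2 residual and 4.78 prior degrees of freedom, and p-values were adjusted by Benjamini-Hochberg over 14217 genes, with a threshold of 0.05. Simulated data were used to test this fit. The number of arrays, 3 per state, limits the precision. The genes, their roles and the lists of partners and markers were chosen with earlier results of these data known, so their counts and medians stand beside those of all genes with no test of the list. Values per array are given for the called members that changed most in each role, the brightest member and members that moved against their role, and for up to 3 called genes of each list or any called against its direction. Kif3b, Kif1c, Kifc3, Tubgcp2, Dync1h1, Cenpe, Racgap1, Prc1, Kifap3, Klc1, Hook2, Mapre1, Hdac6 and the other Cct genes were given values outside this rule, for their roles, after these were seen. Mapk8ip1, Dctn4, Trak1 and Dctn6 were likewise added, to complete the higher calls of their list. Alternatives were the PLIER columns (as deposited or with 16 added), RMA with 16 subtracted, each array as a replicate, other uses of technical replicate 2, the mean of all probe sets, another variance model, the methods' t-test, a filter on the dimmest 25% of genes (mean log2 intensity under 6.51), centring, a replicate block and leaving out each replicate.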

Additional observations from a re-analysis of the deposited data

How the results depend on the processing

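Of the 29 members called, 21 stayed called under every alternative except the methods' t-test, and 0 changed sign. That t-test was run here with a Benjamini-Hochberg adjustment, which the study does not mention. So adjusted, it called 0 members in either direction, and 26 had an unadjusted p below 0.05. Thus 0 mitotic kinesins were lower and 0 transport kinesins higher or lower. Over all genes the adjusted t-test called 13 higher and 7 lower, against 4643 at an unadjusted p below 0.05. The cause was not tested. The higher transport kinesins numbered 2 rather than 4 with technical replicate 2 left out or averaged with biological replicate 2, and 2 to 4 when 1 replicate was left out; the lower ones then numbered 3. Leaving out 1 replicate gave 23 to 26 called members and a median log2 change of the mitotic kinesins between -1.004 and -0.811, the smaller one without A16 replicate 1. The median of the transport kinesins was -0.136 in the PLIER columns and -0.131 with 16 added to them, where the mitotic minus the transport median was -0.854, beside -0.955 by RMA. With the replicate block 37 members were called, 12 of them higher, and it lost no call. Over all genes 7019 were called with the block, 3908 of them higher, against 5524 and 3115 without it. The replicate numbers pair only 2 samples per state, and the labels do not say that a number marks a shared batch (correlation of deviations 0.557). The 11 members among the dimmest 25% of genes were not called by RMA as deposited. Of these, Kif21a was called higher in 5 of its 15 alternatives, among them RMA with 16 subtracted, where its log2 change was 0.59 (adjusted p = 0.019) beside 0.36.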
